A study of Mus musculus with 16 samples.

Results

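The comparison described here is of histone H3 acetylated at lysine 27 (H3K27ac) in mouse embryos that had received an RNA for mutant Hdac1 and in embryos that had received water. Its members are the H3K27ac peaks that the authors deposited for chromosomes 1 to 19, in 1 list per injection. These are 188057 of the 372612 peaks of the series, of which 73320 were called after water and 114737 after the mutant RNA. Of the remaining peaks, those of H3 trimethylated at lysine 4 (H3K4me3) in the same kinds of embryo serve below as a second readout. The others are H3K27ac peaks outside chromosomes 1 to 19, 4124 after water and 7770 after the mutant RNA.

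The embryos were Mus musculus at the late 2-cell stage, 36 h after fertilization, and both groups had been injected as zygotes. In the water group the zygote received only H2O, and in the mutant group it received mRNA of an Hdac1 mutant, and the labels name no change to the endogenous gene in either group. The labels do not name the mutation, the strain or the number of embryos. Chromatin was cut with micrococcal nuclease after removal of the zona pellucida, and fragments were isolated with an antibody to the modification. Each group holds 2 immunoprecipitation libraries and 2 input libraries, but the labels assign 1 list to both libraries of a group. No replicate error can therefore be given, no test of the injections was made, and "lower" and "higher" below describe a difference between a pair of lists. An effect of the injected RNA cannot be told apart from any other difference between the libraries behind the lists. The lists hold positions without a height, so a covered length says how much sequence was called and not how strong the mark was.

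Acetylation of lysine 27 is placed by the acetyltransferases p300 and CBP at active promoters and enhancers and is removed by histone deacetylases. Hdac1 and its close relative Hdac2 are the catalytic subunits of the NuRD, Sin3 and CoREST corepressor complexes. In the mouse the main wave of zygotic genome activation falls in the late 2-cell stage, when genes for ribosome assembly, RNA processing and translation begin to be transcribed from the embryo's own genome. H3K4me3 marks promoters and forms broad domains in oocytes that are replaced by narrower ones during this stage.

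The promoters of 6 genes are shown first, because the peaks around them display both directions of the difference between the lists. Nop2 (ribosomal RNA methyltransferase), Eif2b4 (a subunit of the exchange factor for translation initiation factor eIF2) and Pou5f1 (the pluripotency factor Oct4) lay under wide H3K27ac peaks in water and not in mutant embryos. Sf3b2 (a subunit of the U2 splicing particle) and Ube2n (a ubiquitin-conjugating enzyme) had start sites under mutant peaks and not under water peaks. Sox2 (the partner of Oct4 in pluripotent cells) had mutant peaks on both sides of its start site, which itself lay under none, and no water peak within 10 kb. These 6 genes were chosen after their values had been seen. The sequences are the 250 bases upstream of the start site from RefSeq in build GRCm38.p6, written 5′ to 3′ along transcription, with every CG dinucleotide in capitals. They are chr6:125131633-125131882 for Nop2, chr5:31193140-31193389 on the minus strand for Eif2b4, chr17:35505782-35506031 for Pou5f1, chr19:5295458-5295707 on the minus strand for Sf3b2, chr10:95514912-95515161 for Ube2n and chr3:34649745-34649994 for Sox2.
Nop2: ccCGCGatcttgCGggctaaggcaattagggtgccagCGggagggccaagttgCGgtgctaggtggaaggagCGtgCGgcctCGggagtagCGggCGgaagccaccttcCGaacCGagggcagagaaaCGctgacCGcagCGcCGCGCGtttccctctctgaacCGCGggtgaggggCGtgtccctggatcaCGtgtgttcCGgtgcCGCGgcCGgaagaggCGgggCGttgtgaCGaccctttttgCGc
Eif2b4: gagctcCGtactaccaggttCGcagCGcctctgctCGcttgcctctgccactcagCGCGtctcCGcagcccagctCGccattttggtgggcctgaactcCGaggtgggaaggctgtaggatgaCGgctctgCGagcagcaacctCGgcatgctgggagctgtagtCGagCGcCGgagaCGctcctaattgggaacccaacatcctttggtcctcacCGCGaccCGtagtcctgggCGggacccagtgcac
Pou5f1: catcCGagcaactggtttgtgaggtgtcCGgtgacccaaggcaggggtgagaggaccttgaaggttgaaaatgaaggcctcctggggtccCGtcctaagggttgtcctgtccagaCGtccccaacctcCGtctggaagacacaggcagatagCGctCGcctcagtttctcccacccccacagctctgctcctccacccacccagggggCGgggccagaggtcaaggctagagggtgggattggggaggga
Sf3b2: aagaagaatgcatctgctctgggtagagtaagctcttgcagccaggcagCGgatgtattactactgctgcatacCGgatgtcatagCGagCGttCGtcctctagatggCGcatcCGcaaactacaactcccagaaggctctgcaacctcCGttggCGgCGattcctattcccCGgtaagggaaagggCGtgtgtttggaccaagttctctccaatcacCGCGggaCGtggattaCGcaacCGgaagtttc
Ube2n: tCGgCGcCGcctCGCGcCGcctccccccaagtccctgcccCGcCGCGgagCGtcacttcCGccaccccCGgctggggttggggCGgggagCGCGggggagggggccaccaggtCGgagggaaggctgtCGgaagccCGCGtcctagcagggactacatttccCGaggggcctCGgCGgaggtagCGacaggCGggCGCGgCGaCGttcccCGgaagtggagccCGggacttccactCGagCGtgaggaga
Sox2: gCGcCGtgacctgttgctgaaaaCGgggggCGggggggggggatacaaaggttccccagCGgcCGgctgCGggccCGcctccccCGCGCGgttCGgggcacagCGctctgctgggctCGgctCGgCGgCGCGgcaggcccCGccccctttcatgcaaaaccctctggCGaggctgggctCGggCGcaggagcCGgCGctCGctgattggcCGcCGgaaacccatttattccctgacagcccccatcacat
The windows hold 30 CG dinucleotides at Nop2, 20 at Eif2b4 and 8 at Pou5f1, and 17 at Sf3b2, 32 at Ube2n and 27 at Sox2. Promoters rich and less rich in CG thus occur on both sides of the comparison.

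At Nop2 (chr6:125131883-125144753), a water peak of 27118 bp ran across the start site, and the whole window of 10 kb on each side was covered. No base of that window was called in mutant embryos. H3K4me3 in the same window covered 12.8 kb in water and 10.5 kb in mutant embryos, so the promoter kept a called domain of the methyl mark. The stretch from Nop2 to Gapdh (glyceraldehyde-3-phosphate dehydrogenase of glycolysis), chr6:125131883-125166467, had 28.2 kb under water peaks and 0.735 kb under mutant peaks. H3K4me3 over that stretch went the other way, from 9.30 to 25.9 kb. Iffo1, an intermediate filament family member between both genes, shares these windows, so the 3 genes are 1 locus and not 3 observations.

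Eif2b4 (chr5:31187558-31193139) lay inside a water peak of 71138 bp at chr5:31144330-31215467, which also spans Mpv17, Gtf3c2, Snx17, Zfp513 and Ppm1g. Of this domain 15.6% remained under 4 mutant peaks, and no other water domain over 10 kb lost as many bases. The window of Eif2b4 was covered in full in water and held no mutant peak. H3K4me3 covered 14.3 kb of it in water and 17.4 kb in mutant embryos.

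Pou5f1 (chr17:35506032-35510777) had 17.0 kb of its window covered in water and 1.88 kb in mutant embryos, and the mutant peak lay upstream of the start site. Its H3K4me3 coverage was 15.5 kb in water and 19.1 kb in mutant embryos. At all 3 genes the acetyl mark was called over far less sequence in the mutant list while the methyl mark was still called at the start site.

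Sox2 (chr3:34649995-34652461) showed the opposite. Its window held no H3K27ac peak in water and 7.24 kb in mutant embryos, and its H3K4me3 coverage was 10.3 and 18.1 kb. Ube2n (chr10:95515162-95545658) had no water peak in its window and 17.6 kb under mutant peaks, although water peaks lay just outside the window on both sides. Sf3b2 (chr19:5273921-5295457) had 0.244 kb in water and 14.3 kb in mutant embryos, with nearly equal H3K4me3 of 11.8 and 12.1 kb. The stretch from Sf3b2 to its neighbour Gal3st3 (a galactose sulfotransferase), chr19:5273921-5308739, went from 2.44 to 19.96 kb.

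**Figure D1:**
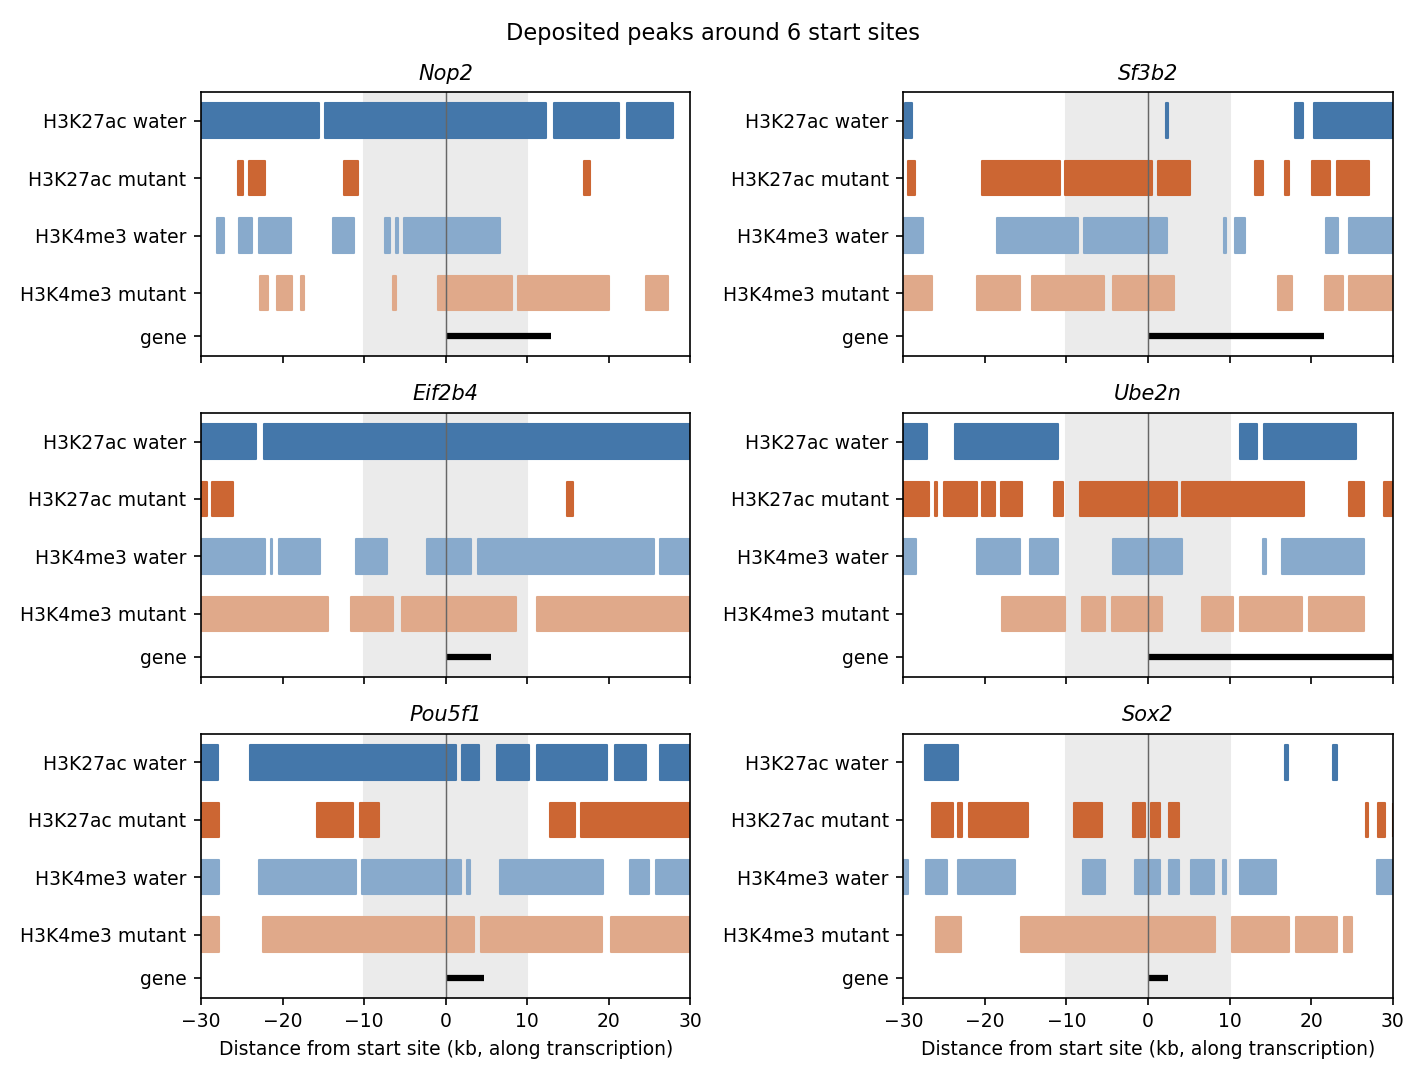
Peaks of the 4 deposited lists (bars) within 30 kb of the start sites of 6 genes, by distance from the start site in kb along the direction of transcription, with the gene as a black line and the window of 10 kb on each side shaded. In the left column the H3K27ac bars of the water list fill much or all of the shaded window and those of the mutant list fill little or none of it. In the right column the mutant bars cover the start site of Sf3b2 and Ube2n and lie beside that of Sox2, and the water bars do not.

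The difference in peak number came with nearly the same covered length. Water peaks covered 241.8 Mb and mutant peaks 237.2 Mb, a ratio of 0.981, whereas peak numbers stood at a ratio of 1.56. The N50 width, at and above which peaks hold 50% of the covered bases, was 8238 bp in water and 4145 bp in mutant embryos, a ratio of 0.503. The widest peaks were 102512 bp in water and 44287 bp in mutant embryos. The lists were not cut by the same limits, with a narrowest peak of 168 bp and a narrowest gap of 681 bp in water and of 149 and 602 bp in mutant embryos. Bringing both lists to common limits left 1.41 times as many mutant peaks and a covered length ratio of 0.997. Joining peaks less than 1 kb apart moved the covered length ratio to 1.01, so no direction is given for covered length.

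Only part of the sequence was the same. Of the water bases 43.6% were also under a mutant peak, and of the mutant bases 55.5% were not under a water peak. In megabases, 105.4 were shared, 136.3 were called in water alone and 131.7 in mutant embryos alone. Over all widths, 60.5% of water peaks overlapped no mutant peak and 67.2% of mutant peaks overlapped no water peak. Of water peaks up to 500 bp, 88.4% (95% Wilson interval 87.97 to 88.8, which covers counting error only) overlapped no mutant peak, and of mutant peaks up to 500 bp, 89.8% overlapped no water peak. Of the 1462 water peaks over 20 kb, 1.16% overlapped none, and of the 209 mutant peaks over 20 kb, 0.478% overlapped none. A wider peak can touch another more easily, so these counts are read beside the share of bases: 10.5% of the bases of water peaks up to 500 bp and 59.2% of those over 20 kb lay under mutant peaks.

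Wide water domains were mostly represented by several mutant peaks. Of the 5827 water peaks over 10 kb, 70.1% (68.9 to 71.2) overlapped 2 or more mutant peaks, 38.9% overlapped 3 or more, 23.5% overlapped 1 and 6.44% overlapped none. In the other direction, 46.1% of the 2636 mutant peaks over 10 kb overlapped 2 or more water peaks and 48.8% overlapped 1. The median wide water domain had 56.2% of its bases under mutant peaks, and the median wide mutant domain had 80.9% under water peaks. Joining peaks less than 1 kb apart lowered the share of split water domains to 52.0%, and common limits lowered it to 60.4%.

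**Figure D2:**
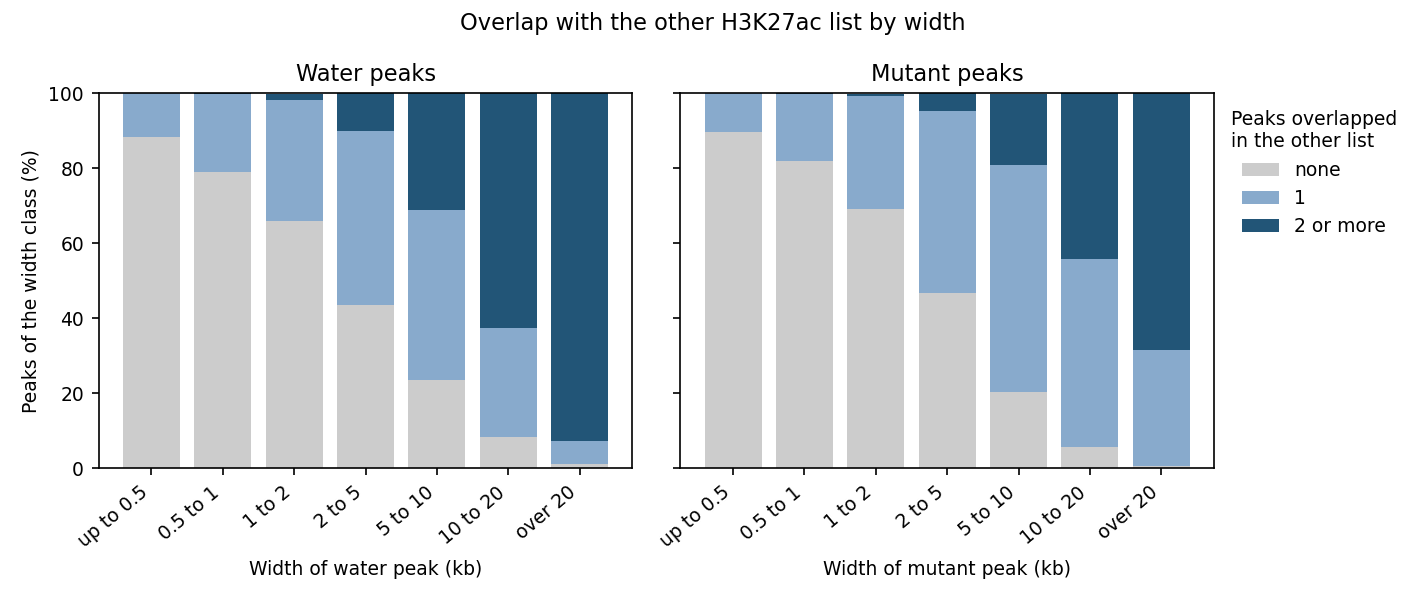
Share of peaks (vertical axis, %) that overlap none, 1, or 2 or more peaks of the other H3K27ac list by at least 1 bp, for water peaks (left) and mutant peaks (right) by width in kb. Narrow peaks of both lists mostly overlap none, and 92.7% of water peaks over 20 kb overlap 2 or more mutant peaks, against 68.4% of mutant peaks of that width.

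Inside the wide water domains, 13948 pieces of mutant peaks had a median width of 2955.5 bp. The 8496 gaps between neighbouring mutant peaks had a median of 922.0 bp, 55.1% were under 1 kb and 26.5% over 2 kb. Losses were spread along the domains: the share of bases kept was 48.8% in the first and 47.7% in the last of 10 equal stretches and reached 58.5% in the sixth. Distance from a start site made little difference. Within wide water domains the share kept was 57.0% up to 1 kb from a start site, 55.6% from 1 to 5 kb and 54.1% farther away. These classes hold 4.91, 15.8 and 71.6 Mb of the 101.9 Mb in wide water domains, since chromosome 18 and sequence within 5 kb of the ends of genes with no known start site were left out, except up to 1 kb from a known one.

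The 5 widest water peaks lay over named genes. The widest, 102512 bp at chr8:106078915-106181426, spans Nfatc3 (a calcium-regulated transcription factor), Esrp2, Pla2g15 and Slc7a6, and 52.4% of it lay under 13 mutant peaks. The second, at chr4:133750994-133844588, spans Arid1a, a subunit of the SWI/SNF remodelling complex, with 71.3% under 13 mutant peaks. The third, at chr17:83638964-83732479, lies over Mta3, a NuRD subunit, with 56.8% under 13 mutant peaks. The fourth, at chr19:8844351-8930581, covers the Bscl2, Ubxn1, Ganab and B3gat3 cluster, with 72.5% under 10 mutant peaks. The fifth, at chr17:46820572-46901537, covers Bicral and Tbcc, with 45.3% under 8 mutant peaks.

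The 5 widest mutant peaks lay largely inside sequence that was already called in water. They were at Plekhg3 (44287 bp, 84.9% under water peaks), Mapk13 (42583 bp, 78.3%), Ptpn11 and Rpl6 (39425 bp, 97.96%), Grap (37423 bp, 96.8%), and Fam160b2 and Dmtn (36306 bp, 87.8%). Among wide water domains with the most bases lost were also one of 74531 bp at chr7:73580969-73655499, with 38.2% left and over no protein-coding gene (the nearest, the chromatin remodeller gene Chd2, is 39222 bp away), and one of 56345 bp over Mfsd2b, Ubxn2a and Atad2b at chr12:4873326-4929670, with 25.4% left. At the domain on chromosome 7, H3K4me3 covered 66217 bp in water and 70643 bp in mutant embryos, and at the one over Atad2b it covered 49469 and 23836 bp.

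H3K4me3 was read over each class of H3K27ac sequence, since it did not define the classes. Of the sequence acetylated in both lists, 66.6% lay under H3K4me3 in water and 57.5% in mutant embryos. Of sequence acetylated in water alone, the shares were 44.5 and 36.7%, and of sequence acetylated in mutant embryos alone they were 21.4 and 29.3%. Sequence in neither list had 4.20 and 5.93%, and the whole span 10.03 and 11.1%. The methyl mark thus covered less of the sequence acetylated in water and more of the sequence acetylated in mutant embryos alone. In wide water domains, 59.1% of bases under water H3K4me3 and 44.2% of bases outside it stayed under a mutant H3K27ac peak. Over all water peaks these shares were 53.7 and 31.7%. Peaks of both marks came from embryos of the same injections, and their part in one another was not tested.

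Around the start sites of 16457 protein-coding genes with a known direction, coverage was highest in the 500 bp just downstream, centred at 0.25 kb, where 36.8% of bases lay under a water peak and 29.6% under a mutant peak. In the outer parts of the profile the means were 24.8 and 20.7%. The ratio of mutant to water coverage stayed between 0.794 and 0.879 at every distance up to 20 kb, so the deficit was not limited to the promoter itself.

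**Figure D3:**
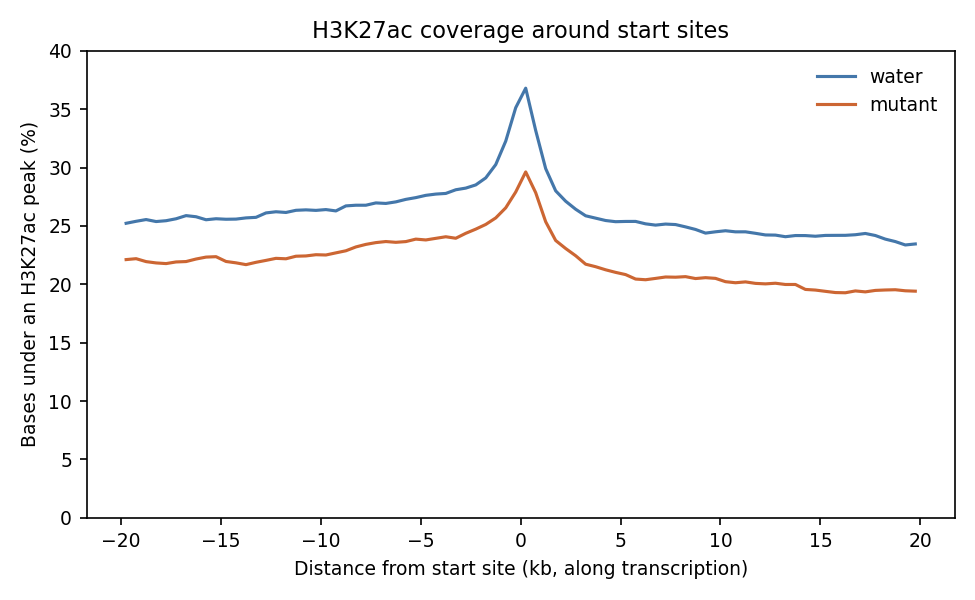
Share of bases under an H3K27ac peak (vertical axis, %, in steps of 500 bp over 16457 start sites) by distance from the start site (kb, along the direction of transcription), for the water and the mutant list. The water line is above the mutant line at every distance, with maxima of 36.8 and 29.6% at 0.25 kb.

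Away from genes the order of the lists was exchanged. Sequence more than 2 kb beyond the ends of protein-coding genes made up 36.3% of water bases and 41.5% of mutant bases. The share was 35.2% in shared sequence, 37.2% in sequence of water alone and 46.5% in sequence of mutant embryos alone. Distances were taken to the nearest end of a protein-coding gene, so peaks inside gene bodies are included. Mutant peaks with no water overlap lay at a median of 34.7 kb from the nearest gene end, and water peaks with no mutant overlap at 32.4 kb. Peaks with an overlap lay much nearer, at 9.91 kb for mutant and 9.27 kb for water peaks. Among peaks over 2 kb with no overlap the medians were 18.1 kb for mutant and 13.3 kb for water peaks.

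Bins of 500 kb show the same by gene number. In the 1185 bins that hold no protein-coding gene, mutant peaks covered 1.37 times the length of water peaks, from 1.54 to 2.11% of the bins. The ratio was 1.29 with 1 or 2 genes, 1.04 with 3 to 5, 0.910 with 6 to 10, 0.845 with 11 to 20 and 0.805 in the 116 bins with over 20 genes, where coverage went from 31.0 to 24.9%. Of all 4930 bins, 2128 were lower and 2675 higher in mutant embryos. With peaks over 2 kb alone, the ratio in bins without genes was 1.01 and that in the bins richest in genes 0.760, so the excess in gene-free bins was carried by peaks up to 2 kb. H3K4me3 ratios were 1.19 in bins without genes, 1.26 with 1 or 2 genes and 1.03 in the richest, without crossing 1.

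**Figure D4:**
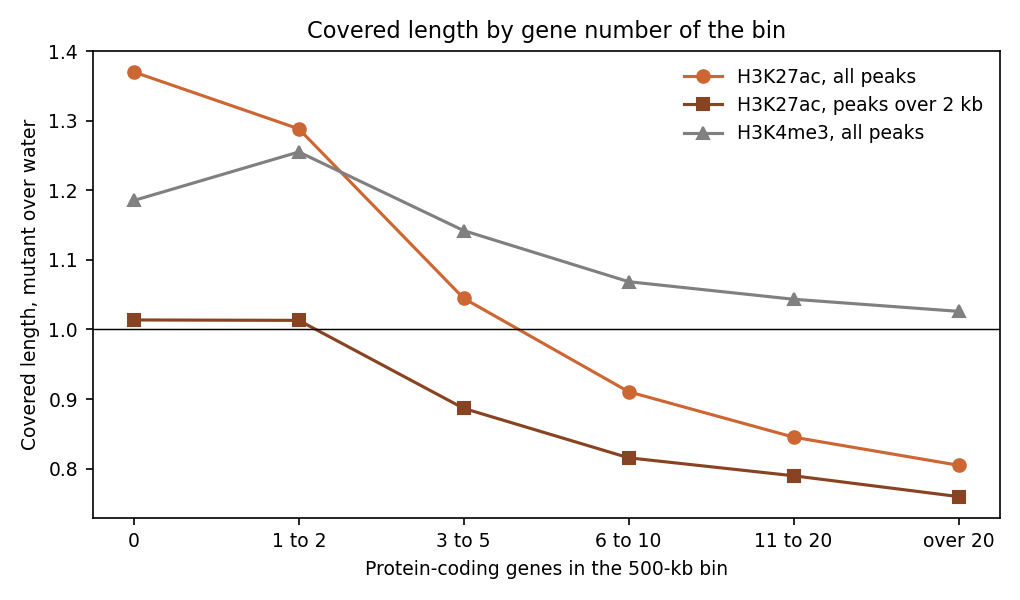
Covered length in the mutant list over that in the water list (vertical axis, summed over 500-kb bins) by the number of protein-coding genes in the bin, for all H3K27ac peaks, H3K27ac peaks over 2 kb and H3K4me3 peaks. The line of all H3K27ac peaks falls from 1.37 to 0.805 and that of peaks over 2 kb from 1.01 to 0.760.

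The largest falls of a bin were on chromosome 16 at 4500001 to 5000000 (339.0 to 177.5 kb, with Tfap4, Glis2 and Dnaja3), chromosome 11 at 4500001 to 5000000 (332.4 to 173.0 kb, with Nf2 and Ap1b1) and chromosome 10 at 4000001 to 4500000 (269.0 to 112.6 kb, with Mthfd1l and Akap12). H3K4me3 in the bin of Nf2 was 246.9 kb in water and 247.0 kb in mutant embryos, while in the bin of Tfap4 it was 278.9 and 207.5 kb. The largest rise was on chromosome 2 at 71500001 to 72000000, from 61.0 to 153.4 kb. That bin holds the homeobox genes Dlx1 and Dlx2, the integrin gene Itga6 and the mitochondrial kinase gene Pdk1, and its H3K4me3 went from 128.2 to 178.4 kb. Another bin on that chromosome, at 132000001 to 132500000, holds the replication clamp gene Pcna and had 132.3 and 218.3 kb.

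Every chromosome had more mutant than water peaks, with ratios between 1.37 and 2.01. The covered length ratio was above 1 on 10 of 19 chromosomes and ran from 0.857 on chromosome 11 to 1.25 on chromosome 18. The share of water bases kept was lowest on chromosome 14, at 35.9%, and highest on chromosome 11, at 49.3%.

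For single genes, the covered length was taken within 10 kb of the start site, or within 10 kb of both gene ends for the 4208 genes with no known direction. A gene was called lower when it had at least 2 kb covered in water and at most 0.5 of that in mutant embryos, and higher with the lists exchanged. Of 20665 protein-coding genes, 3354 were lower (16.2%) and 3362 higher (16.3%). This balance depends on the window and the fold: within 2 kb 2924 genes were lower and 1874 higher, within 5 kb 3313 and 2707, and at 4-fold 1712 and 2344. The calls of the groups below were made with the window of 10 kb alone. Of genes with at least 2 kb in water, 32.0% were lower, and of genes with at least 2 kb in mutant embryos, 29.2% were higher. Since neighbours share windows, the lower genes form 2506 loci and the higher genes 2806. The median gene had 2180 bp in water and 2922 bp in mutant embryos, while the summed length stood at a ratio of 0.861. Of the 16457 start-site windows, 384 were covered in full in water and 17 in mutant embryos.

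The same rule on H3K4me3 called 6.86% of genes lower and 12.6% higher. Among genes with lower H3K27ac, 10.9% had lower and 7.96% higher H3K4me3, and their summed H3K4me3 length stood at a ratio of 1.001. Among genes with higher H3K27ac, 7.11% had lower and 26.9% higher H3K4me3, with a ratio of 1.37. The typical gene of lower H3K27ac went from 10639.5 to 2137.0 bp of acetylated sequence, with 9903.5 and 10233 bp of H3K4me3. The typical gene of higher H3K27ac went from 475.5 to 5469.5 bp, with 4957.0 and 7474 bp of H3K4me3.

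Several groups of genes are described below by their calls, beside the shares of 16.2% lower and 16.3% higher over all genes. Most of these groups have more acetylated sequence in water than the median gene, which makes a lower call possible for more of their members. The share among members with at least 2 kb in water is therefore given too, to be read beside 32.0%. For the groups where it does not stand with the calls, it was 26.5% for the Hdac1 family, 6 of 30 members for acetyltransferases and readers, 32.4% for splicing factors, 35.7% for proteasome subunits, 29.4% for pluripotency, 35.3% for trophectoderm, 33.3% for oocyte, 42.9% for cumulus and 22.2% for differentiated-tissue genes. Members near each other, and members of recent families such as Zscan4, Obox, Usp17l and Tdpoz, are not independent: reads of near-identical copies may be placed on any of them.

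Of 44 ribosome biogenesis factors, 18 were lower and 2 higher. Of the 43 members with at least 2 kb in water, 41.9% were lower. The median member had 13476.5 bp in water and 9457.0 bp in mutant embryos. Ncl (nucleolin, a main protein of the nucleolus) had 15.7 kb in water and 1.17 kb in mutant embryos. Wdr12, of the complex that matures the large ribosomal subunit, had 17.95 and 1.97 kb. Utp6, of the small-subunit processome, had 38.1 and 14.7 kb over both gene ends. Rrp12, which serves in export of ribosomal subunits, had 33.1 and 33.2 kb, so not every member differed. H3K4me3 in this group was lower for 2 and higher for 3 members, beside 6.86 and 12.6% over all genes.

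Translation factors showed 10 lower and 2 higher of 39, with 27.03% of the members above 2 kb in water lower, under the share over all genes. Their median went from 16874.0 to 9452.0 bp. Eif5a, which relieves stalled ribosomes, had 19.04 and 2.38 kb. Eef1b2, an exchange factor of elongation factor 1, had 19.6 and 5.98 kb. Eif3j1, a subunit of the initiation factor eIF3, had 16.9 and 4.08 kb. Eif2b3, of the same complex as Eif2b4, had 35.4 and 32.5 kb and was not called.

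RNA polymerase II and its general factors had 10 lower and 2 higher of 42, and 26.3% of those above 2 kb in water were lower. Ccnt1, the cyclin of the elongation kinase P-TEFb, had 16.3 kb in water and 2.19 kb in mutant embryos. The polymerase subunits Polr2i and Polr2h had 18.8 and 14.99 kb in water and 8.65 and 5.90 kb in mutant embryos. Mnat1, of the kinase module of factor TFIIH, went the other way, with 1.60 and 11.4 kb, while its H3K4me3 went from 12.7 to 0.967 kb. Taf2 was among those not called, with 22.9 and 21.1 kb.

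Splicing factors had 12 lower and 6 higher of 42. Subunits of 1 particle stood on both sides: Sf3b1 had 16.6 kb in water and 1.45 kb in mutant embryos, against 0.244 and 14.3 kb at Sf3b2. Srsf7, a serine and arginine rich splicing factor, had 14.9 and 2.15 kb, and the related Srsf2 had 17.6 and 13.7 kb. Hnrnpa1, a nuclear RNA-binding protein, had 16.4 and 5.56 kb, with H3K4me3 over its whole window in water and over 18.7 kb in mutant embryos. Of 31 proteasome subunits, 10 were lower and 6 higher. Psma4 and Psmc5 had 14.1 and 13.5 kb in water and no mutant peak in their windows, whereas Psmb2 had 6.32 and 19.8 kb.

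Housekeeping genes of metabolism and the cytoskeleton had 12 lower and 5 higher of 35, and 38.7% of those above 2 kb in water were lower. Ppia (cyclophilin A) had 19.8 and 3.61 kb, Gpi1 (an enzyme of glycolysis) 17.2 and 1.57 kb, and Tubb5 (a beta-tubulin) its whole window and 4.42 kb. Gapdh had 14.8 kb in water and no mutant peak in its window. Actb (beta-actin) was not called, with 19.98 and 15.01 kb, and Pfn1 (profilin) had 11.9 and 17.4 kb.

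Of 34 genes of the 2-cell stage and genome activation, 10 were lower and 2 higher, and 37.0% of those above 2 kb in water were lower. Their median went from 9387.5 to 6218.5 bp. Klf17, a zinc finger factor active in early embryos, had 18.5 kb in water and 0.234 kb in mutant embryos, with H3K4me3 of 15.1 and 8.57 kb. Nr5a2, an orphan nuclear receptor, had 18.5 and 7.09 kb, and its H3K4me3 went from 17.99 to 8.23 kb. Tdpoz2 had 20.3 and 4.97 kb, and Obox5, of a homeobox family, had 1.65 and 11.2 kb. Dppa2 and Dppa4, a chromatin-binding pair encoded side by side, had 29.2 and 24.1 kb in water and 25.5 and 20.3 kb in mutant embryos. H3K4me3 was lower for 7 and higher for 4 of the 34 genes, beside 6.86% lower and 12.6% higher over all genes.

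Among 44 genes of the Hdac1 family and its corepressor complexes, 9 were lower and 8 higher, near the shares over all genes. Hdac1 itself (chr4:129516104-129542646) had 32.1 kb in water and 15.9 kb in mutant embryos over both ends, which at 0.495 of water is just inside the limit. The peaks come from genomic DNA, so they do not measure the injected RNA. Arid4a and Ing1, of the Sin3 complex, had 19.04 and 18.4 kb in water and 4.002 and 6.64 kb in mutant embryos. Rbbp4, a histone-binding subunit shared by several complexes, had 19.2 and 18.4 kb. Hdac2, chosen after its values had been seen, had 1171 bp in water and 4625 bp in mutant embryos and was called higher.

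Acetyltransferases and readers of acetyl-lysine had 6 lower and 4 higher of 33. Brd1, a scaffold of acetyltransferase complexes, had 18.3 and 7.22 kb, and Supt3, of the SAGA complex, had 17.1 and 7.75 kb. Hat1, which acetylates new histone H4, had 4.36 and 14.0 kb. Kat6b, an acetyltransferase of histone H3, had 18.3 and 18.6 kb and was not called. The genes of both main writers of H3K27ac were looked at after other values had been seen: Ep300 had 20000 bp in water and 11423 bp in mutant embryos, and Crebbp had none in water and 3325 bp in mutant embryos.

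Pluripotency genes had 5 lower and 3 higher of 25. Beside Pou5f1, Fgf4 (a growth factor of the inner cell mass) had 18.03 and 6.49 kb and Gdf3 (a ligand of the TGF-beta family) 11.6 and 3.25 kb. Prdm14 and Sall4, both transcriptional regulators, were not called, with 26.7 and 38.9 kb in water and 26.9 and 33.3 kb in mutant embryos. Trophectoderm and Hippo genes had 6 lower and 10 higher of 32, and 43.5% of the members with at least 2 kb in mutant embryos were higher, beside 29.2%. Their summed length stood at a ratio of 0.947, while the median went from 2552.5 to 5029.0 bp. In mutant embryos 18 members had more covered sequence and 11 had less. The Hippo kinase gene Stk4 had 17.8 and 5.52 kb, the effector gene Tead3 had 9.88 kb in water and no mutant peak, and Hand1 had 19.7 and 2.96 kb. Nf2, an upstream activator of Hippo signalling, had its whole window in water and 16.9 kb in mutant embryos, and Tfap2c had 16.5 and 18.6 kb. Among the higher genes of this group, named after their values had been seen, were Cdx2 with 1293 bp in water and 8037 bp in mutant embryos and Gata3 with none and 6244 bp, both transcription factors of the trophectoderm. Their H3K4me3 was 9565 and 18245 bp at Cdx2 and 18178 and 19005 bp at Gata3.

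Of the 4 groups with more higher than lower calls, trophectoderm and oocyte genes had medians in water of 2552.5 and 2208.0 bp, near the 2180 bp of all genes, and the other 2 groups lay below it. Developmental transcription factors had 4 lower and 13 higher of 49. Of the 19 members with at least 2 kb in mutant embryos, 68.4% were higher, beside 29.2% over all genes, and of the 9 with at least 2 kb in water, 44.4% were lower, beside 32.0%. Both shares of this group were thus above those over all genes. Their median went from 492.0 to 857.0 bp, and H3K4me3 was lower for 1 and higher for 10 of the 49 members, beside 6.86 and 12.6% over all genes. Sox1, a regulator of neural development, had no water peak in its window and 7.89 kb under mutant peaks, with H3K4me3 of 12.98 kb in water and 19.1 kb in mutant embryos. Pax6 (an eye and brain regulator) and Foxa1 (an endoderm factor) were lower, with 6.44 and 11.1 kb in water and none and 3.84 kb in mutant embryos. Genes of differentiated tissues had 2 lower and 8 higher of 39, and 61.5% of the members with at least 2 kb in mutant embryos were higher. Gfap (an astrocyte filament) and Opn1sw (a cone opsin) had no water peak and 7.74 and 5.99 kb under mutant peaks, and Cela1 (a pancreatic elastase) had 5.43 kb in water and no mutant peak.

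Oocyte and maternal-effect genes had 7 lower and 12 higher of 39, and 12 of the 30 members with at least 2 kb in mutant embryos were higher, beside 29.2%. The measures point different ways in this group: 22 members had less covered sequence in mutant embryos and 15 had more. The summed length stood at a ratio of 0.927, while the median went from 2208.0 to 4528.0 bp. Npm2 (a histone chaperone of the egg), Ybx2 (an RNA-binding protein of germ cells) and Khdc3 (of the subcortical maternal complex) were lower, with 29.2, 18.7 and 17.8 kb in water and 9.79, 5.14 and 4.90 kb in mutant embryos. Zp2, a protein of the zona pellucida, had 0.434 and 12.4 kb. Gdf9 and Dppa3 were not called, with 22.6 and 23.8 kb in water and 24.5 and 18.7 kb in mutant embryos. Cumulus and granulosa cell genes, which could come with adhering somatic cells, had 3 lower and 1 higher of 19.

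**Figure D5:**
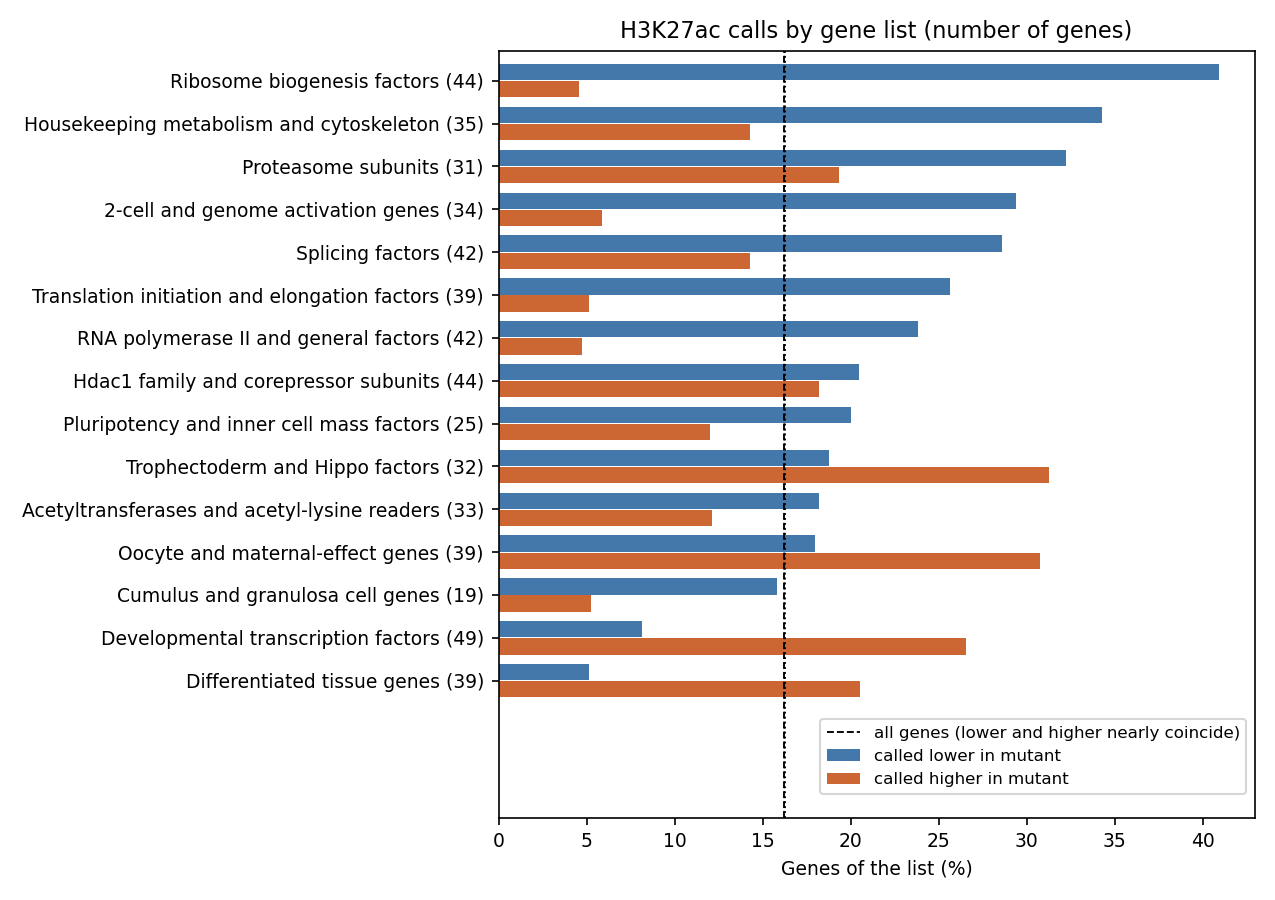
Share of each gene list (horizontal axis, %, number of genes in brackets) called lower or higher in mutant embryos by covered H3K27ac length, with dashed and dotted lines at the shares of all genes, 16.2 and 16.3%. Ribosome biogenesis factors have the highest lower share of the 15 lists, and trophectoderm, oocyte, developmental and differentiated-tissue genes have more higher than lower calls.

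The labelled stage was checked on marker genes. For comparison, 10487 of all 20665 protein-coding genes had at least 2 kb in water and 11508 in mutant embryos. Of 12 genes of the 2-cell embryo, 11 had at least 2 kb in water and 9 in mutant embryos, with summed lengths of 142.0 and 113.6 kb. Of 10 cumulus and granulosa markers, 5 and 4 had at least 2 kb, with sums of 54.3 and 56.2 kb. Foxl2 and Fshr, which define granulosa cells, had no peak in either list, Ptx3 had none in water and Cyp11a1 none in mutant embryos. Other genes of these cells were covered: Star (cholesterol import for steroid synthesis) had 25.7 and 25.3 kb, Amhr2 (the receptor of anti-Müllerian hormone, from the longer list) had its whole window in water and 14.8 kb in mutant embryos, and Has2 (a hyaluronan synthase) had 0.189 and 8.73 kb. Ptgs2 (a prostaglandin synthase) was lower, with 7.41 and 0.746 kb, as was Hsd3b1 (of steroid synthesis, from the longer list), with 3.13 and 0.382 kb. Of 8 oocyte markers, 6 and 7 had at least 2 kb, with sums of 89.9 and 84.6 kb, and Zar1 had none in water. The part of other cells in the differences above was not tested.

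Over all genes, the largest falls were at Chmp7 (31.9 to 1.29 kb), a component of the ESCRT-III membrane machinery, Pgam5 (30.1 kb to none), a mitochondrial phosphatase, Pknox1 (33.4 to 3.92 kb), a homeobox factor, Iffo1 (30.2 to 0.735 kb) and Brd8 (29.97 to 4.72 kb), a bromodomain protein, all measured at both gene ends. H3K4me3 was longer in mutant embryos at 2 of the 5, from 15.3 to 24.1 kb at Chmp7 and from 7.33 to 22.9 kb at Iffo1. It was shorter at the other 3, from 21.4 to 18.5 kb at Pgam5, from 32.5 to 19.3 kb at Pknox1 and from 21.2 to 13.7 kb at Brd8. Among genes measured at the start site alone, 13 of the 384 windows covered in full in water held no mutant peak. Bmpr1a (a BMP receptor), Cops7b (of the COP9 signalosome), Eci1 (of fatty acid oxidation), Nop2 and Eif2b4 were among them. Only 17 start-site windows were covered in full in mutant embryos, and none of them was empty in water. Over all called genes, 669 lower genes had no mutant peak in their window and 1270 higher genes had no water peak.

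The largest rises were at Gal3st3 (0.244 to 24.1 kb), Lrp4 (0.506 to 22.5 kb), a receptor of the neuromuscular junction, Cep350 (0.187 to 21.6 kb), a centrosome protein, Kpna3 (9.27 to 30.004 kb), a nuclear import receptor, and Arl6ip5 (3.61 to 24.1 kb). All 5 were measured at both gene ends, and the window of Gal3st3 overlaps that of Sf3b2. H3K4me3 was longer in mutant embryos at each of the 5, from 20.1 to 21.5 kb at Gal3st3, from 13.9 to 14.1 kb at Lrp4, from 9.17 to 16.0 kb at Cep350, from 6.93 to 18.3 kb at Kpna3 and from 13.6 to 26.2 kb at Arl6ip5. Among start-site windows, Ube2n was followed by Zbtb32 (a zinc finger repressor) and Slc16a1 (a lactate transporter), which had no water peak and 16.0 and 15.9 kb under mutant peaks.

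Promoter sequence was read over the 300 bases around each start site, 250 before and the rest after it. The median number of CG dinucleotides was 19 in promoters of lower genes, 19 in those of genes above 2 kb that were neither, 15 in those of higher genes and 4 where both lists had under 2 kb. At least 10 were found in 74.4, 76.4, 64.3 and 34.9% of them, beside 58.6% of all 16457 promoters. Lower genes and genes that were neither thus had promoters of like CG content, and higher genes had somewhat fewer.

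6 short motifs were searched on both strands of these windows, and none holds another within it. The GC box (GGGCGG) was in 59.04% of promoters of lower genes, 59.4% of those that were neither, 51.8% of those of higher genes and 47.3% of all. The ETS core (CCGGAA) was in 28.0, 27.7, 19.3 and 19.6%, and the TATA box (TATAAA) in 7.65, 8.40, 10.8 and 13.5%. The CCAAT box (CCAAT) was in 40.7, 38.8, 36.6 and 39.1%, the E-box (CACGTG) in 9.20, 9.79, 8.97 and 7.97%, and the cyclic AMP element (TGACGTCA) in 3.57, 2.83, 2.24 and 2.40%. In the sequences printed above, the upstream part holds a GC box at Nop2, Eif2b4, Pou5f1, Ube2n and Sox2 and an ETS core at Nop2, Sf3b2, Ube2n and Sox2. A match is a string of letters and not a shown binding site.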

How the data were processed

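The authors deposited 1 BED list per pair of immunoprecipitation libraries, 4 in all, with chromosome, start and end of each peak and with no score or signal. Per the submitters' processing notes, the tools were CASAVA, Trimmomatic, Bowtie2, SAMtools, Picard, MACS2 and deepTools with mm10 (GRCm38). Their settings, and whether libraries were pooled before or after calling, are not given in the sources used here. Sequencing depth was not analysed here.

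Computed here, with Python 3.11.15, NumPy 2.4.6 and pandas 2.3.3: overlaps of at least 1 bp, shared bases, coverage of gene windows and of 500-kb bins, on chromosomes 1 to 19. Genes and promoters came from RefSeq tables of GRCm38.p6. Start sites were known for 16457 of 20665 genes, none of them on chromosome 18, and the others were measured at both ends. Positions are 1-based. Scripts were checked on simulated intervals. Wilson intervals cover counting error only.

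Named genes are the 4 called members of each list with the largest change, 2 uncalled members with the most covered length, the 5 largest falls and rises, and genes at the 5 widest peaks, except where stated. Some were left out for length. The members, lists and promoter genes were chosen with earlier results of these data known.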

Additional observations from a re-analysis of the deposited data

Results flagged for a closer look

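H3K27ac peaks outside chromosomes 1 to 19 were not part of the comparisons above. On chromosome X the mutant list held 7722 peaks and the water list 4029, with 8750.8 and 9871.0 kb covered. Each of chromosomes 1 to 19 also had more mutant than water peaks, with ratios between 1.37 and 2.01. On chromosome Y the mutant list held 28 peaks, of a median width of 235.5 bp, and the water list held 0. Both results were picked out because the mutant list held more peaks than the control list in sequence that the comparisons did not use. The number of male and female embryos in each group is not given in the labels.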

How the results depend on the processing

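With 1 list per group no library could be left out. No paired analysis was possible because each result comes from 1 pooled list per group and from no test, so replicate numbers cannot enter. The settings were joining peaks less than 1 kb apart (A), common limits on gap and width (B), only peaks of at least 500 bp (C), lists of equal number by width (D), and adding chromosomes X and Y (E). The ratio of peak numbers was 1.47 in A, 1.41 in B, 1.59 in C, 1.0 in D by construction and 1.58 in E. The covered length ratio was 1.01 in A, which reversed its direction, 0.997 in B, 0.970 in C and 0.922 in D. The share of water bases kept was 46.2% in A, 45.0% in B, 44.1% in C, 42.9% in D and 43.0% in E. The share of mutant bases outside water peaks was 54.4% in A, 54.9% in B, 54.5% in C, 53.4% in D and 56.0% in E. The share of wide water domains split was 52.0% in A, 60.4% in B, 67.3% in C and 66.1% in D, 65.4% with overlaps of at least 500 bp, and 46.4% for domains over 5 kb. The intergenic share was higher in the mutant list by 4.45 percentage points in D, 5.09 in E and 5.40 with a margin of 10 kb. With a window of 2 kb 1874 genes were higher and 2924 lower, and with one of 5 kb 2707 and 3313, so the near equality of both numbers was seen with the window of 10 kb and with neither narrower one. At 4-fold 1712 genes were lower and 2344 higher. The change of H3K4me3 over lost sequence was -7.27 points in A and -8.18 in C, and over gained sequence 8.01 and 8.22, settings added after the data had been seen, as were the ratios in gene-free bins, which ran from 1.01 (peaks over 2 kb) to 1.41 (A). The causes of these shifts were not tested. Depth was not analysed here, so how many narrow peaks it accounts for is not known.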
